A study of Mus musculus with 4 samples.

Results

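A class of fibroblasts selected on 4 genes, Pi16 among them, and here called the Pi16 class, made up 296 of the 1163 fibroblast barcodes among 3435 barcodes kept from 3 mouse popliteal vessel libraries. They were selected on their own RNA. A barcode, which stands for 1 droplet with a captured cell, was kept if it had 500 or more unique molecular identifiers (UMIs, each counting 1 RNA molecule) and 300 or more genes. Mitochondrial genes could take up to 15% of its UMIs and haemoglobin genes up to 20%. It was counted as a fibroblast where at least 3 of Pdgfra, Col1a1, Col1a2, Dcn and Serpinf1 had a UMI. This gate also let in many barcodes with muscle genes, as given beside the shares. Members of the Pi16 class had at least 2 of Pi16, Sfrp4, Pcolce2 and Dpp4 detected, and more of these than of Cxcl14, Scara5, Inmt and Penk, which define the Cxcl14 class, and than of Col4a4, Tspan11, Itgbl1 and Nkain4, which define the Col4a4 class. The Cxcl14 class held 162 barcodes and the Col4a4 class 150, and the other fibroblast barcodes were left in no class.

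Pi16 fibroblasts are known from the adventitia, the outer connective tissue coat of vessels, and from fascia and skin. Across mouse tissues they are described as a progenitor-like state that shares the surface proteins DPP4, CD55, CD34 and LY6A, and from which more specialised fibroblasts and fat cell precursors can arise. Such cells lay down fibronectin, fibrillin microfibrils and hyaluronan around the muscle layer of a vessel.

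The mice of every library were adults of the cross WT1GFPCre (Wt1tm1(EGFP/cre)Wtp/J) with the reporter strain Ai9-tdT, in which Cre is driven from the Wt1 locus and opens a tdTomato reporter. All were anaesthetised with K/X and given Evans blue dye in the footpad. Of the libraries, 2 came from popliteal lymphatic vessels (PLV), each a pool of 2 mice, digested for 30 minutes with collagenase I, Dispase II, DNAse and Liberase. The mixed library joined PLV and blood vessel (BV) cells of 1 further pool of 2 mice, digested for 60 minutes with collagenase I and Dispase II alone, and its cells were used as 1 sample of both vessels. Vessel, digestion, run and mice therefore cannot be told apart where PLV libraries are set against the mixed one. Values below are given in the order PLV replicate 1, then PLV replicate 2, then mixed library, and for the Col4a4 class in PLV replicate 1 and then the mixed library.

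PLV replicate 1 gave 1919 kept barcodes, PLV replicate 2 gave 519 and the mixed library 997, with medians of 3368, 4901 and 6223 UMIs, and no kept barcode sequence occurred in more than 1 library. The members numbered 230, 23 and 43, with medians of 5207, 6499 and 7946 UMIs. PLV replicate 1 thus held most members, and PLV replicate 2 rests on few cells. The sums of UMIs over all members came to 1428587, 159413 and 357586, and levels below are CPM, the UMIs of a gene scaled to a common total of these sums, with exact 95% Poisson intervals where given, which cover counting error only.

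The Pi16 class was a larger share of the fibroblast barcodes in the PLV libraries than in the mixed library. It made up 43.9% (exact 95% interval 39.6 to 48.3) in PLV replicate 1, 18.7% (12.2 to 26.7) in PLV replicate 2 and 8.33% (6.1 to 11.1) in the mixed library. The mean over the PLV libraries was 31.3% ± 17.8 (SD, n = 2). The PLV replicates lay far apart, both above the mixed library, and no test was made with a single mixed library. These shares leave out 41, 19 and 133 fibroblast barcodes that had 2 or more Pi16 class genes but were kept out by another class. The gap between PLV replicate 2 and the mixed library depends on this exclusion. The interval of PLV replicate 2 overlapped that of the mixed library under 4 of the 7 alternatives: with barcodes thinned to 1500 UMIs (10.1 to 29.3 against 9.13 to 16.5), with other-lineage barcodes left out (11.9 to 30.4 against 7.09 to 15.03), with at least 3 class genes (6.36 to 18.4 against 3.48 to 7.52), and with separate UMIs for gating (10.4 to 26.3 against 5.93 to 11.2). The other classes took other shares: the Col4a4 class held 3.44%, 4.07% and 24.6% of the fibroblast barcodes in the same order, and the Cxcl14 class 13.0%, 26.8% and 11.8%. All these shares are of 524, 123 and 516 barcodes that passed the fibroblast gate, not all of them plain fibroblasts. Clusters led by Acta2 held 123 and 36 of them in the PLV replicates, and 164 and 54 in the mixed library. With other-lineage barcodes left out, 356, 80 and 255 remained, and the Pi16 class made up 52.5%, 20.0% and 10.6%.

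**Figure D1:**
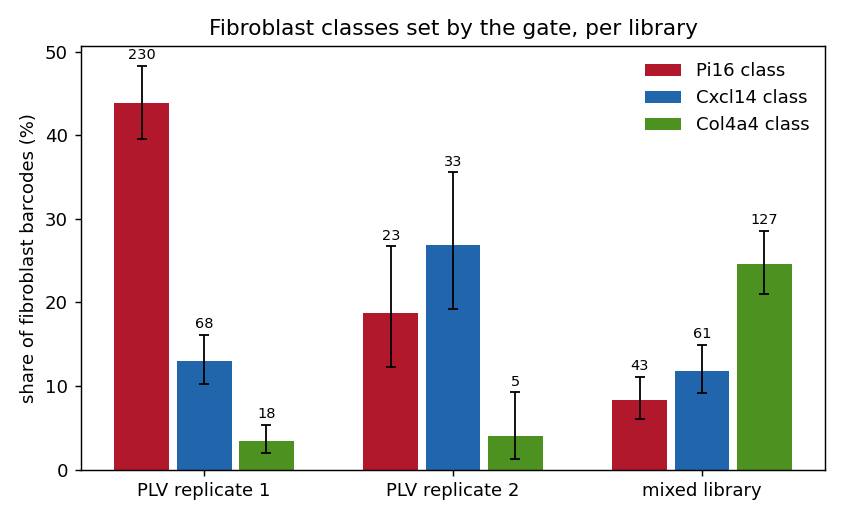
Share of fibroblast barcodes (%, y axis) in the Pi16, Cxcl14 and Col4a4 classes of each library (x axis), with exact 95% binomial intervals and the number of barcodes above each bar. The Pi16 class led in PLV replicate 1 at 43.9%, and the Col4a4 class led in the mixed library at 24.6%.

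The markers that chose the members are given as a description. Pi16, a secreted peptidase inhibitor family protein, stood at 2189 CPM in PLV replicate 1, 1248 in PLV replicate 2 and 582 in the mixed library, and was detected in 91.7%, 69.6% and 67.4% of members. Sfrp4, a secreted Wnt antagonist, was detected in 83.5%, 73.9% and 95.3%, and Pcolce2, an enhancer of procollagen C-proteinase, in 96.1%, 100% and 95.3%. Dpp4, a surface peptidase, was detected in 70.4%, 39.1% and 20.9%, so that the mixed members entered mostly by Sfrp4 and Pcolce2. Members with fewer than 1500 UMIs cannot be thinned to that depth and were left out of the next values. With each other member thinned to 1500 UMIs, Pi16 was detected in 83.8%, 65.0% and 39.0% of them and Dpp4 in 33.3%, 15% and 2.44%. In endothelial barcodes, which should lack Pi16, 3.68%, 2.47% and 5.17% had a Pi16 UMI, at median depths of 3734.5, 5558 and 4781 UMIs.

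Pi16 itself lies on chromosome 17. The window from 250 bases before to 50 bases after its RefSeq start is printed since this gene names the class, with a CCAAT box in capitals (build GRCm38.p6, chr17:29318632-29318931, + strand).
Pi16: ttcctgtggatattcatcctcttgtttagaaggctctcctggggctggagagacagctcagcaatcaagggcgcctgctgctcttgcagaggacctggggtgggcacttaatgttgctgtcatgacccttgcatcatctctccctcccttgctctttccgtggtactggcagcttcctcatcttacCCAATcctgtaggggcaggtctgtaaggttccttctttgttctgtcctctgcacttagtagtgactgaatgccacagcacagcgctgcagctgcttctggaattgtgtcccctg
The letters searched on both strands were CCAAT, those of the GC box, GGGCGG, and those of the TATA box, TATAAA, and this window holds only the first. Among 32851 RefSeq windows of this length, 37.4% hold the CCAAT box, 35.7% the GC box and 13.6% the TATA box. A match is a description of letters only.

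Clec3b, a plasminogen-binding lectin given as a marker of these cells but not used to choose them, did not set the class apart. It stood at 3506, 2660 and 3236 CPM in the members, against 2440, 2461 and 3797 in the Cxcl14 class. The Col4a4 class had 334 and 3032 CPM, and the groups overlap. The log2 difference was 0.10 ± 0.51 (SE) against the Cxcl14 class (edgeR, adjusted p = 0.97) and 1.44 ± 0.67 against the Col4a4 class (edgeR, adjusted p = 0.369). Members with a Clec3b UMI made up 96.1%, 82.6% and 95.3%.

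The label held for most of the 296 pooled members, 230 of them from PLV replicate 1, and less well in the other libraries. In the clusters described below, 9 of 23 members of PLV replicate 2 and 13 of 43 mixed members lay in a cluster made up mainly of members. Muscle markers (Acta2, Myh11, Cnn1, Des and Lmod1) were present in 33 of the 296 members at 2 or more of the 5, namely 13 of 230, 5 of 23 and 15 of 43. Of these 33 barcodes, 9 (27.3%) had a Pi16 UMI and 29 had both Sfrp4 and Pcolce2, while of the 263 other members 247 (93.9%) had a Pi16 UMI. The summed level of the 5 muscle markers was 1364, 6154 and 7044 CPM in the members, from 22.1 to 114 CPM in the Cxcl14 class and from 0 to 27.1 CPM in the Col4a4 class. All 5 were above 0 in the members of every library. Pericyte markers (Rgs5, Kcnj8, Abcc9, Notch3 and Higd1b) summed to between 251 and 401 CPM in the members and to between 87.9 and 175 CPM in the Cxcl14 class.

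Other cell types were scarce in the members. Macrophage, lymphocyte, skeletal muscle, adipocyte and mesothelial markers each summed to at most 8.40 CPM, and the macrophage marker C1qa, the lymphocyte markers Cd3e and Cd79a and the Schwann cell marker Sox10 were at 0 in every library. Keratinocyte markers summed to at most 36.4 CPM and Schwann cell markers to at most 49.7 CPM. Lymphatic endothelial markers reached 95.9 CPM, tendon markers 115 CPM and blood endothelial markers 201 CPM. In all, 43, 7 and 16 members (18.7%, 30.4% and 37.2%) had at least 2 detected markers of another lineage, most often muscle or pericyte. Tendon, mesothelial and adipocyte markers were not counted in this, and 6 mixed members had 2 or more tendon markers. Counts below are for all members unless the cleaner fit is named, which leaves such barcodes out of every class and keeps 187, 16 and 27 members. Without them, Pi16 was detected in 95.2%, 87.5% and 88.9% of members and Clec3b in 98.9%, 100% and 100%. Of the members left out, 76.7%, 28.6% and 31.25% had a Pi16 UMI. Their median depths were 6510, 8864 and 8758 UMIs, against 4897, 6352.5 and 5616 in the rest. In PLV replicate 1, 36 members had 2 or more pericyte markers and 13 had 2 or more muscle markers. The cleaner fit thus also leaves out deep members that hold Pi16.

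**Figure D2:**
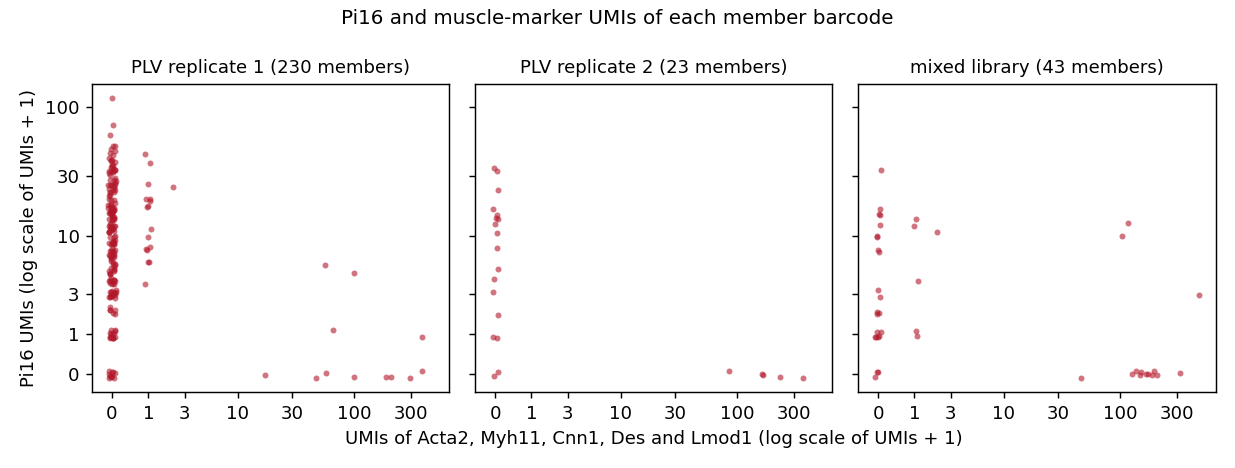
Pi16 UMIs (y axis) against the summed UMIs of the muscle markers Acta2, Myh11, Cnn1, Des and Lmod1 (x axis) in every member, by library, both on a log scale of UMIs + 1 with a small random shift. Most members lie at 0 muscle UMIs, and a separate group to the right, with many muscle UMIs, lies mostly at 0 Pi16 UMIs.

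At the edge of the rule, members with just 2 class genes numbered 33, 9 and 16 and had medians of 1, 0 and 0 Pi16 UMIs. Members with all 4 class genes numbered 129, 5 and 7 and had medians of 15, 17 and 10. Fibroblast barcodes with a single Pi16 class gene and no class numbered 72, 23 and 83 and had a median of 0 Pi16 UMIs in each library. Another class kept out 41, 19 and 133 fibroblast barcodes that had 2 or more Pi16 class genes.

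The members were not uniform. When the fibroblast barcodes of each library were clustered from variable genes without the 17 gate genes, most members of PLV replicate 1 fell into a cluster led by Fn1, Postn, Smpd3, Dpt, Fbn1 and Daglb. It held 145 of the 230 members (63.0%), no barcode of the other classes, and members made up 93.5% of it. A second cluster, led by Ccdc80, Myoc and Gpx3, held 56 (24.3%), a cluster led by Mgp and Cygb that holds most of the Cxcl14 class held 16, and a muscle gene cluster held 12. In PLV replicate 2 the 23 members were spread over a cluster led by Fn1, C3 and Postn (9), the Cygb and Clec3b cluster (9) and a muscle gene cluster (5). In the mixed library 13 of 43 members were in a cluster led by Fn1, C3 and Fbn1, 12 in a muscle gene cluster, 11 in a cluster led by Clec3b and Ccdc80 and 7 in a cluster led by Mgp. As the clusters were made from these genes, their levels are a description with no test.

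Members of the fibronectin-led clusters had the highest Pi16 levels. Pi16 was at 3244 CPM in the 145 members of PLV replicate 1, at 2211 CPM in the 9 of PLV replicate 2 and at 1340 CPM in the 13 of the mixed library. Members of the Ccdc80 and Myoc cluster of PLV replicate 1 had 1150 CPM of Pi16, and members in the muscle gene clusters had 78.5, 0 and 26.7 CPM. Sfrp4 ran the other way in PLV replicate 1, with 559 CPM in the Fn1 cluster and 1394 CPM in the Myoc cluster, while Clec3b was close to even at 4272 and 3485 CPM. Smpd3, which encodes a neutral sphingomyelinase, had 2079 CPM in the Fn1 cluster and 117 CPM in the Myoc cluster. Daglb, a diacylglycerol lipase, had 1432 and 109 CPM. Mrgprg, an orphan G protein-coupled receptor of the Mas-related family, had 984 CPM in the former and 0 UMIs in the latter. Myoc, which encodes the secreted protein myocilin, had 1039 and 3482 CPM.

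**Figure D3:**
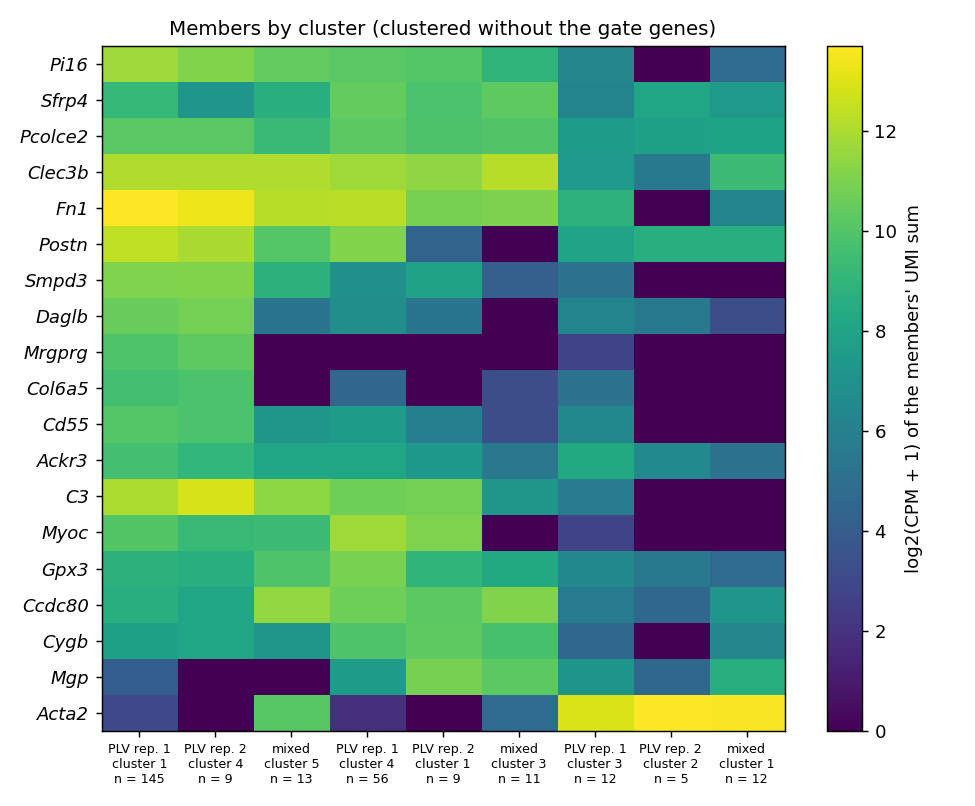
Levels of 19 genes (rows) in the members of 9 clusters (columns, with library, cluster number and number of members), as log2(CPM + 1) of the members' UMI sum. The 3 columns on the left are the fibronectin-led clusters, with Pi16 at 3244, 2211 and 1340 CPM, and the 3 columns on the right are the muscle gene clusters, with high Acta2 and little Pi16.

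The first comparison asked which genes outside the gate set the Pi16 class apart from the other fibroblasts of the same libraries. UMIs were summed per class and library and fitted with the library as a block, in 8 sums, since the Col4a4 class of PLV replicate 2 had only 5 barcodes and was left out. The Col4a4 class sat in different clusters in the libraries, with 9 of its 18 barcodes of PLV replicate 1 in a cluster led by Sfrp5, Itgb4 and Cldn1 and 109 of its 127 mixed barcodes in the cluster led by Mgp. The gate was proposed from these data and sorted barcodes by their own RNA, so these p-values show how regularly genes outside it followed the gate over the libraries and are not independent evidence. Against the Cxcl14 class, 117 of 5984 genes tested were higher (1.96%) and 81 lower (1.35%) at an adjusted p under 0.05 with edgeR. Against the Col4a4 class 123 were higher (2.06%) and 87 lower (1.45%). Both contrasts called 60 genes higher (1.00%) and 22 lower (0.368%). In the cleaner fit, 91 of 4544 genes were higher (2.00%) and 66 lower (1.45%) against the Cxcl14 class, and 190 higher (4.18%) and 134 lower (2.95%) against the Col4a4 class. There, 68 genes were higher in both contrasts (1.50%) and 20 lower (0.440%), and 26 higher and 11 lower genes were shared with the fit over all members, which is 43.3% of the 60 and 38.2% of the 68.

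These calls rest on few libraries. Without PLV replicate 2 the count against the Cxcl14 class fell from 198 to 11, of which 8 were higher and 3 lower, and that against the Col4a4 class from 210 to 84. Of the genes of the naming rule and those named beyond it that were called against the Cxcl14 class and still tested without it, 7 of 59 kept the call, namely Anxa3, Creb5, C4b, Actg2, Cnn1, Pcp4l1 and Pgm5 (edgeR, adjusted p = 0.0489 for each). The others ranged up to an adjusted p of 0.492, with no change of direction. Against the Col4a4 class 33 of 64 kept the call. Without PLV replicate 1, 57 of 68 and 59 of 72 kept it, and without the mixed library 62 of 66 and 55 of 69. Each statement below on the Cxcl14 class holds with that limit. Against the Col4a4 class, Apod, Boc, Col15a1, Col4a1, Col6a6, Ebf1, F3, Fbn1, Fst, G0s2, Meox2, Mme, Ptch1, S100b and Tagln lost the call without PLV replicate 2 (edgeR, adjusted p from 0.0575 to 0.163). Without PLV replicate 1, Efhd1, Emilin2, G0s2, Tenm2, Thbs4, Aif1l, Pla1a, Islr2 and Duox1 lost the call against the Cxcl14 class (edgeR, adjusted p from 0.0597 to 0.43). Aif1l, Pla1a, Duox1 and Duoxa1 lost it against the Col4a4 class, where 1 Col4a4 sum was left (log2 differences 3.15, 6.4, 2.76 and 3.38). Without the mixed library, Dtna and Ephb2 lost it against the Cxcl14 class (edgeR, adjusted p = 0.084 and 0.149), and Edn1, Cnn1, Dtna, G0s2, Mme, Pgm5, Pla1a and Sytl2 against the Col4a4 class (edgeR, adjusted p from 0.0724 to 0.556).

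Of 22 adventitial progenitor genes tested, 9 were higher against the Cxcl14 class and 9 against the Col4a4 class, none lower, with median log2 differences of 0.96 and 2.04 beside -0.02 and -0.03 over all genes tested. The list was drawn up from genes known in such fibroblasts, with earlier results of these data known. Passing in both contrasts were Smpd3, Creb5, Cd55 and Efhd1. In the Col4a4 class Smpd3, Creb5 and Efhd1 lay at or under a floor of 3 counts, so those calls are a description. In the cleaner fit Anxa3, Sema3c, Ackr3 and Dact2 also passed in both, and 9 and 17 of 21 list genes were higher in the 2 contrasts (medians 0.91 and 2.82), beside the 2.00% and 4.18% of all genes given above.

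Smpd3 stood at 1235, 960 and 140 CPM in the members. In the Cxcl14 class it stood at 3.56, 33.1 and 11.5 CPM, and in the Col4a4 class at 8.56 and 3.01 CPM. All 3 member sums lay above all 5 others. Smpd3 was 29.0-fold and 12.2-fold above the Cxcl14 class in PLV replicate 2 and the mixed library. It passed the filter on low counts through the member sums, and both Col4a4 sums lay at or under the floor of 3 counts (25.7 and 3.01 CPM). Its calls are therefore a description, and that against the Cxcl14 class was lost without PLV replicate 2 (edgeR, adjusted p = 0.0981).

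Creb5, a transcription factor of the CRE-binding family, stood at 335, 270 and 89.5 CPM in the members. The Cxcl14 class had 39.2, 27.6 and 7.64 CPM and the Col4a4 class 8.56 and 2.01 CPM, so the members lay above both in every library. The log2 difference was 3.14 ± 0.31 (SE) against the Cxcl14 class (edgeR, adjusted p = 0.00101), and Creb5 passed that contrast with each library left out in turn. Both Col4a4 sums lay under the floor of 3 counts (25.7 and 3.01 CPM), so the call against that class is a description.

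Cd55, a membrane protein that speeds the decay of complement convertases, stood at 680, 389 and 50.3 CPM in the members. It stood at 74.8, 77.3 and 17.2 CPM in the Cxcl14 class and at 77.0 and 9.04 CPM in the Col4a4 class. The members were higher within each library, but the mixed member sum lay below the PLV sums of the other classes. The log2 differences were 2.39 ± 0.35 (SE) and 2.86 ± 0.44 (edgeR, adjusted p = 0.00459 and 0.00476; 0.134 for the former without PLV replicate 2). Efhd1, a calcium-binding mitochondrial protein, stood at 236, 119 and 30.8 CPM in the members, at 39.2, 22.1 and 13.4 in the Cxcl14 class and at 0 and 1.00 in the Col4a4 class. It was higher than in the Cxcl14 class by 2.07 ± 0.40 on the log2 scale (edgeR, adjusted p = 0.0184; 0.254 without PLV replicate 2). Both Col4a4 sums lay under the floor of 3 counts (25.7 and 3.01 CPM), so that call is a description.

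Of the surface and secreted proteins of the progenitor list, Ly6a, Cd34 and Igfbp6 did not pass against the Cxcl14 class over all members, whereas Cd55 did. Ly6a stood at 1651, 1073 and 1379 CPM in the members and at 1432, 850 and 1864 CPM in the Cxcl14 class, a log2 difference of -0.01 ± 0.51 (SE; edgeR, adjusted p = 0.999). Cd34 differed by 0.47 ± 0.48 (edgeR, adjusted p = 0.784) and Igfbp6 by 0.14 ± 0.28 (edgeR, adjusted p = 0.916). Cd248, which encodes endosialin, passed against the Col4a4 class alone, with a log2 difference of 1.98 ± 0.44 (edgeR, adjusted p = 0.0328; 0.0652 and 0.134 without PLV replicate 1 or 2). Intervals as wide as these errors do not show that the classes are alike in them.

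Of 18 microfibril and elastic fibre genes, 2 were higher and 1 lower against the Cxcl14 class, and 4 were higher against the Col4a4 class, with medians of 0.03 and 0.33, beside 1.96% higher and 1.35% lower, and then 2.06% higher, of all genes tested. With the cleaner members 4 of 17 were higher and 1 lower, and then 5 higher, beside 2.00% higher and 1.45% lower, and then 4.18% higher, of all genes. Fbn1, which encodes the microfibril protein fibrillin 1, stood at 2172, 1687 and 951 CPM in the members, at 517, 552 and 483 in the Cxcl14 class and at 214 and 298 in the Col4a4 class, with no overlap. It was higher by 1.49 ± 0.36 (SE) and 2.46 ± 0.45 on the log2 scale (edgeR, adjusted p = 0.0478 and 0.0124; 0.405 and 0.0694 without PLV replicate 2). Emilin2, an elastin interface protein, was higher by 1.22 ± 0.28 and 3.03 ± 0.39 (edgeR, adjusted p = 0.0363 and 0.00213; 0.34 for the former without PLV replicate 2). Fbln1, which encodes fibulin 1, was lower against the Cxcl14 class, with 221, 238 and 140 CPM against 638, 596 and 319 (log2 difference -1.47 ± 0.30; edgeR, adjusted p = 0.0239; 0.291 without PLV replicate 2).

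Of 17 collagens tested, 3 were lower in both contrasts, Col4a1, Col4a2 and Col15a1, and 1 was higher against the Col4a4 class, Col6a6, with list medians of -0.14 and 0.79. Of all genes tested, 1.96% were higher and 1.35% lower, and then 2.06% and 1.45%. Col4a1, a chain of network-forming collagen IV, stood at 184, 263 and 215 CPM in the members, at 805, 966 and 840 in the Cxcl14 class and at 590.5 and 867 in the Col4a4 class. The member sums lay below all others, with log2 differences of -2.11 ± 0.29 (SE) and -1.85 ± 0.33 (edgeR, adjusted p = 0.00361 and 0.0103; 0.132 and 0.0684 without PLV replicate 2). Col4a2 followed at -1.93 ± 0.28 and -2.12 ± 0.32 (edgeR, adjusted p = 0.00416 and 0.00439; 0.132 for the former without PLV replicate 2). Col15a1 no longer passed against the Col4a4 class in the cleaner fit (edgeR, adjusted p = 0.112). In the cleaner fit 3 of 16 collagens were higher and 3 lower, and then 4 higher and 2 lower (medians 0.28 and 1.15). Beside them, 2.00% of all genes were higher and 1.45% lower in that fit, and then 4.18% and 2.95%. Col14a1, Col6a5 and Col6a6 were higher in both contrasts there, though not in every library. Col14a1, a fibril-associated collagen, stood at 838, 602 and 419 CPM in all members and at 71.2, 38.6 and 244 CPM in the Cxcl14 class, and the Col4a4 class of the mixed library had 456 CPM. Col6a5, a collagen VI chain, stood at 448, 370 and 2.80 CPM in all members and from 0 to 24.8 CPM in the Cxcl14 class, the mixed library being highest there, so the mixed members lay below.

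Fn1 and Postn were chosen after their values were seen. Postn, which encodes the matrix protein periostin, stood at 3703, 1713 and 447 CPM in the members, at 467, 49.7 and 212 in the Cxcl14 class and at 8.56 and 32.1 in the Col4a4 class. It was higher by 2.89 ± 0.69 (SE) and 5.80 ± 0.97 on the log2 scale (edgeR, adjusted p = 0.0469 and 0.00764; 0.492 for the former without PLV replicate 2). Fn1, which encodes fibronectin, stood at 9083, 4811 and 2151 CPM in the members and at 1931, 756 and 1301 in the Cxcl14 class. Its log2 difference of 1.86 ± 0.47 missed the threshold over all members (edgeR, adjusted p = 0.0599) and passed in the cleaner fit at 2.25 ± 0.41 (edgeR, adjusted p = 0.00801).

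Of 10 Hedgehog pathway genes tested, 2 were lower against the Cxcl14 class and 4 against the Col4a4 class, with medians of -0.70 and -1.93, and none was higher, beside 1.35% and 1.45% lower of all genes tested. In the cleaner fit 2 of 8 were lower, and then 4 lower and 1 higher (medians -1.02 and -1.75), beside 1.45% and 2.95% lower of all genes, the last being the co-receptor Cdon (log2 difference 1.71; edgeR, adjusted p = 0.00776). Boc, a co-receptor, stood at 14.0, 6.27 and 8.39 CPM in the members and between 38.6 and 59.3 CPM in the other 5 sums (edgeR, adjusted p = 0.0225 and 0.0161; 0.207 and 0.0693 without PLV replicate 2). In PLV replicate 2 and the mixed library the members lay at or under the floor of 3 counts (18.8 and 8.39 CPM). Boc thus rested on the classes where it is high, and its calls, also within the list counts, are a description. Ptch1 was lower against the Col4a4 class alone, where PLV replicate 1 had 1284 CPM and the mixed library 75.3 CPM. Ptch1 is also among the leading genes of the Sfrp5-led cluster that held 9 of those 18 barcodes.

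Preadipocyte and lipid genes were lower against the Cxcl14 class in 7 of 15 tested (median -1.31), and against the Col4a4 class in 3 of 15 (median -0.06), beside 1.35% and 1.45% of all genes tested. The cleaner fit had 3 of 11 lower, and then 2 lower and 1 higher, beside 1.45% lower, and then 2.95% lower and 4.18% higher, of all genes. Apod, a lipid carrier, stood at 682, 765 and 316 CPM in the members, at 6800, 5176 and 986 in the Cxcl14 class and at 2661 and 1051 in the Col4a4 class. Its log2 differences were -2.74 ± 0.39 (SE) and -1.91 ± 0.42 (edgeR, adjusted p = 0.00399 and 0.0324; 0.148 and 0.163 without PLV replicate 2), and the latter was lost in the cleaner fit (adjusted p = 0.0697 with edgeR). Apoe, another lipid carrier, stood at 389, 408 and 453 CPM in the members and at 2832, 3145 and 2760 CPM in the Cxcl14 class, with 1652 and 419 CPM in the Col4a4 class. G0s2, an inhibitor of fat breakdown, and F3, which encodes tissue factor, were lower in both contrasts, with log2 differences of -1.57 and -1.66 and of -1.40 and -1.88. Neither was called in both contrasts of the cleaner fit.

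Of 12 complement genes tested, 1 was higher and 3 lower against the Cxcl14 class and 3 were higher and 2 lower against the Col4a4 class, with medians of -1.16 and 0.09. The shares of all genes tested were 1.96% higher and 1.35% lower, and then 2.06% and 1.45%. The cleaner fit had 1 of 11 higher and 3 lower, and then 3 higher and 3 lower. Shares of all genes there were 2.00% and 1.45%, and then 4.18% and 2.95%. C4b was lower than in the Cxcl14 class (log2 difference -2.60 ± 0.29; edgeR, adjusted p = 0.00103) and higher than in the Col4a4 class (2.35 ± 0.40; edgeR, adjusted p = 0.0089). C3, the central complement component, was higher against the Col4a4 class alone, with 3009, 3645 and 833 CPM in the members against 394 and 28.1 CPM.

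Chemokine and cytokine genes had 1 higher and 5 lower of 16 tested against the Cxcl14 class and 2 higher against the Col4a4 class (medians -0.64 and 0.87). Over all genes tested 1.96% were higher and 1.35% lower, and then 2.06% higher. Among the cleaner members, 2 of 15 were higher and 2 lower, and then 6 higher (medians -0.51 and 0.98). Beside these, 2.00% of all genes were higher and 1.45% lower, and then 4.18% higher. Cxcl12, a retention signal for blood cells, was among the lower genes, at 542, 345 and 165 CPM in the members against 1407, 1424 and 665 CPM. Ackr3, a scavenging receptor for Cxcl12, was the higher gene, at 567, 289 and 109 CPM against 164, 55.2 and 28.6 CPM (log2 difference 1.89 ± 0.30; edgeR, adjusted p = 0.00794). Without PLV replicate 2, Cxcl12 and Ackr3 were not called (edgeR, adjusted p = 0.405 and 0.171). Ccl7 was higher against the Col4a4 class, at 94.5, 94.1 and 103 CPM in the members against 0 and 7.03 CPM.

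Growth factors and receptors had 3 lower of 21 against the Cxcl14 class, Igfbp3, Igfbp4 and Vegfa, and 1 higher and 2 lower against the Col4a4 class (medians -0.71 and 0.17). The TGF beta and BMP list had 1 lower of 19 (Gdf10) and then 2 higher (Tgfb2 and Fst), with medians of 0.00 and 0.16. Proteases and inhibitors had 1 higher and 2 lower of 24 and then 3 higher (medians -0.37 and 0.49). Proteoglycans and hyaluronan genes had 1 higher of 16 (Aspn) and then 1 higher and 1 lower (medians 0.35 and -0.09). The Wnt list had none of 13 called against the Cxcl14 class and 1 lower, Sfrp5, against the Col4a4 class (medians 0.20 and 0.71), where Sfrp5 leads the cluster named above. Mesenchymal and limb transcription factors had none of 24 called and then 2 higher (Osr2 and Ebf1) and 1 lower (Meox2), with medians of -0.03 and 0.02. Retinoid and detoxifying enzymes had 1 higher and 1 lower of 10 in each contrast (medians -0.37 and -0.17). Ugdh, which makes the UDP-glucuronic acid used for hyaluronan, was higher in both, at 592, 671 and 221 CPM in the members against 235, 82.8 and 85.9 CPM in the Cxcl14 class and 42.8 and 39.2 CPM in the Col4a4 class. Immediate early and heat shock genes had 1 lower of 23 (Socs3) and then none (medians -0.36 and 0.15), and of the cell cycle list 1 gene was tested and not called. The cleaner fit had other counts for these lists. Proteases had 3 higher and 1 lower of 23, and then 7 higher and 1 lower. Transcription factors had none of 20, and then 5 higher and 2 lower, and the Wnt list none of 10, and then 3 higher and 2 lower. The TGF beta and BMP list had 1 higher and 1 lower of 15, and then 3 higher, and proteoglycans 1 higher of 14, and then 3. Growth factors had 3 lower of 20, and then 1 higher and 1 lower. Retinoid enzymes had 1 higher and 1 lower of 10, and then 2 and 2, and immediate early and heat shock genes 3 lower of 23, and then 1 lower. Shares over all genes were 1.96% higher and 1.35% lower, and then 2.06% and 1.45%, over all members, and 2.00% and 1.45%, and then 4.18% and 2.95%, in the cleaner fit. Nothing is read from list counts near these shares.

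**Figure D4:**
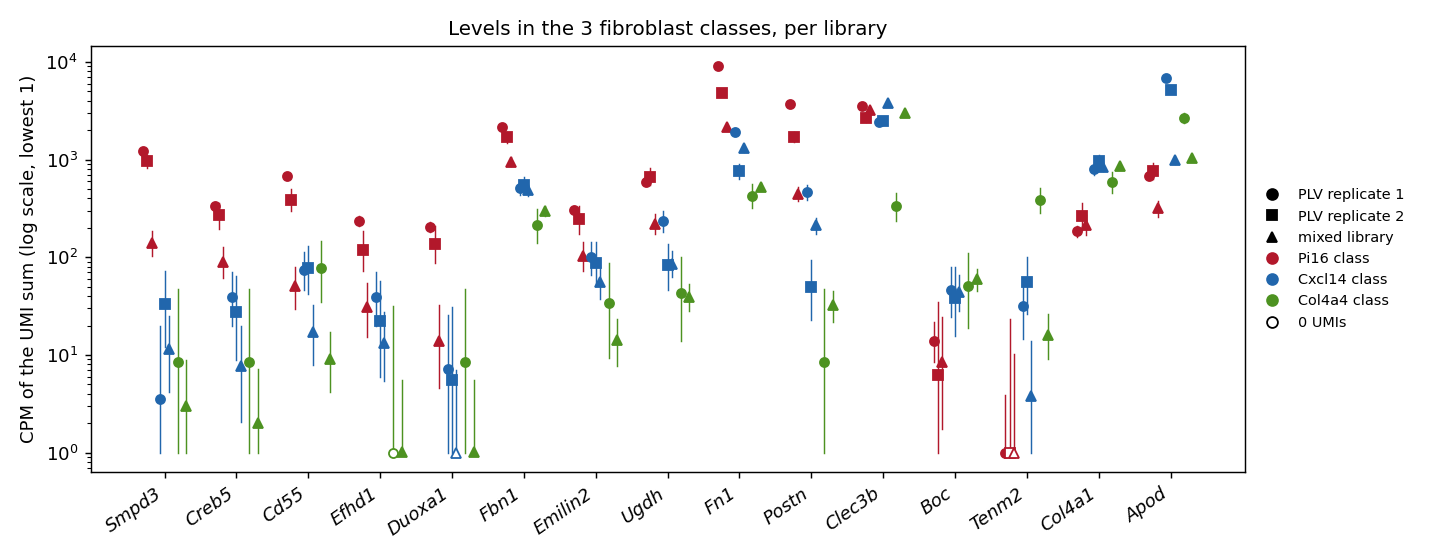
CPM (log scale, y axis) of 15 genes (x axis) in the UMI sums of the 3 classes, with exact 95% Poisson intervals, marker shape for the library and open symbols for 0 UMIs, where levels under 1 are drawn at 1. Smpd3, Creb5 and Fbn1 of the Pi16 class lie above all other sums, Clec3b does not, and Boc and Col4a1 lie below.

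Outside the lists, the 10 genes with the largest differences over all members were largely muscle genes. They were Acta2, Actg2, Cnn1, Myh11, Pcp4l1, Pgm5, Tagln, Sh3bgr, Dtna and Sytl2. Acta2, smooth muscle actin, stood at 890, 3513 and 4346 CPM in all members, but at 5.76, 0 and 14.7 CPM in the members without other-lineage markers. Only Sytl2 of these 10 was still tested in the cleaner fit, where it passed both contrasts. Of the 60 genes higher in both contrasts, 26 were not tested in the cleaner fit.

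Genes of the cleaner fit were ranked by the same rule after values were seen. The 10 highest were Edn1, Duoxa1, Duox1, Aif1l, Sytl2, Islr2, Daglb, Fzd10, Pla1a and Camk1d. Mrgprg, absent from the mixed members, was left out by the rule that all libraries have the same sign. Edn1, which encodes the vasoconstrictor peptide endothelin 1, stood at 56.7, 56.5 and 64.3 CPM in the members. It was at 3.56, 0 and 0 CPM in the Cxcl14 class and at 0 in the Col4a4 class, so the size of the difference is not determined. Its level was close in the 3 libraries. A gene near 0 outside the members, as Edn1 is, passed the filter on low counts through the member sums, so its levels are a description.

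Duox1 and Duoxa1 of this set were chosen for description after their values were seen. Duox1 encodes a dual oxidase, which makes hydrogen peroxide, and Duoxa1 its maturation factor, and they lie head to head on chromosome 2, with starts 1942 bases apart (GENCODE, GRCm38). Both passed the filter on low counts through the member sums, so their levels are a description. Duoxa1 stood at 206, 138 and 14.0 CPM in the members, at 7.12, 5.52 and 0 in the Cxcl14 class and at 8.56 and 1.00 in the Col4a4 class. Duox1 stood at 115, 107 and 5.59 CPM in the members and at 0 to 3.56 CPM in the other sums. Duox2, a second dual oxidase gene that is not in the set, stood at 122, 62.7 and 0 CPM in the members and at 0 in the other classes, and at 214, 219 and 91.2 CPM in endothelial barcodes, so endothelial barcodes also held it.

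The window of Duoxa1 is shown for the pair just described. That of Mrgprg is shown for a gene that, among the 3 classes, had UMIs in the PLV members alone, as Duox2 did. Both are from RefSeq with GC boxes in capitals (GRCm38.p6, chr2:122313681-122313980 and chr7:143766944-143767243, - strand).
Duoxa1: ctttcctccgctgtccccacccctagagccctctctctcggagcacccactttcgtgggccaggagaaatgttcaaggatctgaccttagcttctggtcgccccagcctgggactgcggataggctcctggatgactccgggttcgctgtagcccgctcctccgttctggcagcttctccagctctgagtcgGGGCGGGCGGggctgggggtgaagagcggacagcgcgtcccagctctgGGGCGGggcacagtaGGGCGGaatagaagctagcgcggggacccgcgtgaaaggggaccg
Mrgprg: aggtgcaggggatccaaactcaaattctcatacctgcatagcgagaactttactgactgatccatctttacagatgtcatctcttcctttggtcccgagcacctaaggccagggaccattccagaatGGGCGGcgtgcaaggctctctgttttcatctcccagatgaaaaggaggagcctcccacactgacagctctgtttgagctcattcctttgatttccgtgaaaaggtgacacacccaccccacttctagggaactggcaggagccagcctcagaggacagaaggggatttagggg
The first holds 4 matches, of which 2 overlap, and the second holds 1. Neither holds a CCAAT box or a TATA box.

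Lower genes outside the lists included Tenm2, a teneurin adhesion protein, at 0.70, 0 and 0 CPM in the members against 32.1, 55.2 and 3.82 in the Cxcl14 class and 385 and 16.1 in the Col4a4 class. Thbs4, a thrombospondin of tendon, was at 0.70, 0 and 0 CPM against 35.6, 33.1 and 7.64 and against 873 and 26.1 CPM. In the members both genes lay under the floor of 3 counts (2.10, 18.8 and 8.39 CPM), so their calls are a description. Tendon markers, of which Thbs4 is part, summed to 924 and 101 CPM in the Col4a4 class. In PLV replicate 1 that sum was mostly Thbs4 itself, with Tnmd, Scx and Mkx at 0, and in the mixed library Scx and Mkx were at 0. The part of tendon cells in that contrast was not tested. S100b, Mme and Ephb2 were the other lowest genes.

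The second comparison set the Pi16 class of the PLV libraries against that of the mixed library, in 3 sums, where the single mixed sum is assumed to vary like the PLV sums. Each p here rests on the spread between 2 PLV pools, beside what edgeR shares over genes. The filter on low counts could be passed through 1 library, so Mrgprg, Dkk2, Duox2, Col6a5, Daglb, Duoxa1, Igfbp3, Osr2, C7, Rbp4 and H2-M9, with fewer than 10 UMIs in one kind of library, passed through the other, and their calls are a description. Of 6378 genes tested, 64 were higher in PLV (1.00%) and 82 lower (1.29%) at an adjusted p under 0.05 with edgeR. In the cleaner fit 171 were higher (4.37%) and 285 lower (7.29%) of 3909, and DESeq2 called 25 over all members. On simulated counts of this layout 25.3% of genes changed 4-fold were recovered (5948 genes, 13.2% of calls false), so many differences would be missed and some calls are expected to be wrong. Vessel, digestion, run and mice differ together here. The mice also differed in sex-limited RNA, as Xist stood at 857, 1154 and 0 CPM and Ddx3y at 0, 0 and 72.7 CPM in the members. By these genes, the sex of the mice went with the kind of library. It cannot be told apart from vessel, digestion and run in any comparison of PLV with mixed, the shares and the interaction included.

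The make-up of the class differed here, as the Fn1-led clusters held 63.0%, 39.1% and 30.2% of the members. Mrgprg stood at 569 and 502 CPM in the PLV members (535 ± 47.6, SD, n = 2) and had 0 UMIs in the mixed members, which allows up to 8.39 CPM. It was at least 67.8-fold and 59.8-fold higher against that floor of 3 counts per library, and it had 0 UMIs in the Cxcl14 class of all 3 libraries. Col6a5 stood at 448, 370 and 2.80 CPM, the last being 1 UMI, so the size of the difference is not determined. Daglb stood at 865, 772 and 14.0 CPM, and Smpd3 was higher by 2.56 ± 0.57 (SE) on the log2 scale. Cd55 was also higher, by 3.01 ± 0.59, and the levels of Duoxa1 given above ran the same way. Within the Fn1-led clusters alone, Mrgprg stood at 984, 1237 and 0 CPM and Col6a5 at 757, 912 and 0 CPM. Daglb stood there at 1432, 1840.3 and 37.5 CPM and Smpd3 at 2079, 2180.5 and 449.9 CPM, so these 4 genes were lower in the 13 mixed members there too. The clusters were made in each library apart and need not match. Ccdc80 stood in them at 405, 278 and 2793 CPM and Gpx3 at 451, 387 and 984 CPM. In the Ccdc80 and Myoc cluster of PLV replicate 1, Ccdc80 stood at 1609 and Gpx3 at 1990 CPM. The same 4 genes were low there, at 0, 22.3, 109 and 117 CPM. The part of make-up in this gap was not tested, and as the clusters were made from such genes, these levels are a description.

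Other genes with higher levels in the PLV members included secreted factors. Dkk2, a Wnt antagonist, stood at 77.7 and 201 CPM in the PLV members and at 0 in the mixed members, and Duox2 at 122, 62.7 and 0 CPM. Efemp1, which encodes fibulin 3, stood at 610, 634 and 69.9 CPM (log2 difference 2.73 ± 0.55 SE; edgeR, adjusted p = 0.00694). Ccl11, the chemokine eotaxin, stood at 715, 539 and 81.1 CPM (2.54 ± 0.55; edgeR, adjusted p = 0.0108). Igfbp3, an IGF carrier, stood at 217, 470 and 11.2 CPM. The limb and joint transcription factor Osr2 stood at 232, 176 and 25.2 CPM.

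Sparc and C7 were the other way round. Sparc, a collagen-binding matricellular protein, stood at 2896 and 1926 CPM in the PLV members and at 27577 CPM in the mixed members (log2 difference -3.93 ± 0.66 SE; edgeR, adjusted p = 0.0015). The same order was seen in the Cxcl14 class, at 2675, 1854 and 29408 CPM, and in endothelial barcodes, at 954, 915 and 1848 CPM, so all 3 kinds of barcode had their highest level in the mixed library. C7, a component of the membrane attack complex, stood at 0, 12.5 and 319 CPM, and Rbp4, a retinol carrier, at 4.20, 12.5 and 296 CPM. Sfrp2, a Wnt modulator, stood at 88.9, 18.8 and 515 CPM and Pdgfrl at 26.6, 50.2 and 333 CPM. C7 and Rbp4 kept these differences in the cleaner fit, at 0, 9.81 and 496 CPM and at 4.80, 9.81 and 452 CPM.

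H2-M9, a class I-like histocompatibility gene, stood at 0.70, 6.27 and 218 CPM over all members and had 0 UMIs in the members of each library without other-lineage markers. Cldn5, a tight junction protein of endothelium, was called higher in PLV from 157 UMIs in 6 members of PLV replicate 1, and stood at 2.88 CPM there in the cleaner fit and at 1503 CPM in endothelial barcodes. Neither gene was tested in the cleaner fit. Among 23 immediate early and heat shock genes 4 were lower in PLV, Atf3, Hspa1a, Hspa1b and Hspb1, with a list median of -0.86 beside 0.00 over all genes tested, and 9 were lower and 1 higher in the cleaner fit. Of all genes tested, 1.29% were lower and 1.00% higher in PLV, and 7.29% and 4.37% in the cleaner fit. Hspa1a, an inducible chaperone, stood at 63.0, 94.1 and 433 CPM. The digestion lasted 30 minutes for the PLV libraries and 60 minutes for the mixed library, and its part in the result was not tested.

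Adventitial progenitor genes had 3 higher of 23 (Cd55, Efhd1 and Smpd3; median 0.60), beside 1.00% higher and 1.29% lower of all genes tested, and the Wnt list 2 higher and 1 lower of 13 (median 0.82). Microfibril genes, collagens, complement genes, retinoid enzymes and growth factors had 1 higher and 1 lower each, with medians of 0.52, -0.60, -0.09, 0.36 and -0.12. Proteases and inhibitors had 2 higher and 2 lower of 24, and chemokines and the transcription factor list 1 higher each. The proteoglycan, TGF beta and BMP, Hedgehog, preadipocyte and cell cycle lists had none called over all members. Over the cleaner members progenitor genes had 7 higher of 20, collagens 3 higher and 6 lower of 15, and proteases 5 higher and 7 lower of 22. The Wnt list had 2 higher and 1 lower of 12, growth factors 2 higher and 3 lower of 17, and the TGF beta and BMP list 1 higher and 2 lower of 12. Microfibril, complement, chemokine, transcription factor and retinoid genes had 2 higher and 2 lower each. Proteoglycans had 1 lower of 13, the preadipocyte list 2 lower of 10, and the Hedgehog and cell cycle lists none. The shares over all genes there were 4.37% higher and 7.29% lower, and several of these counts lie near such shares, so nothing is read from them.

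**Figure D5:**
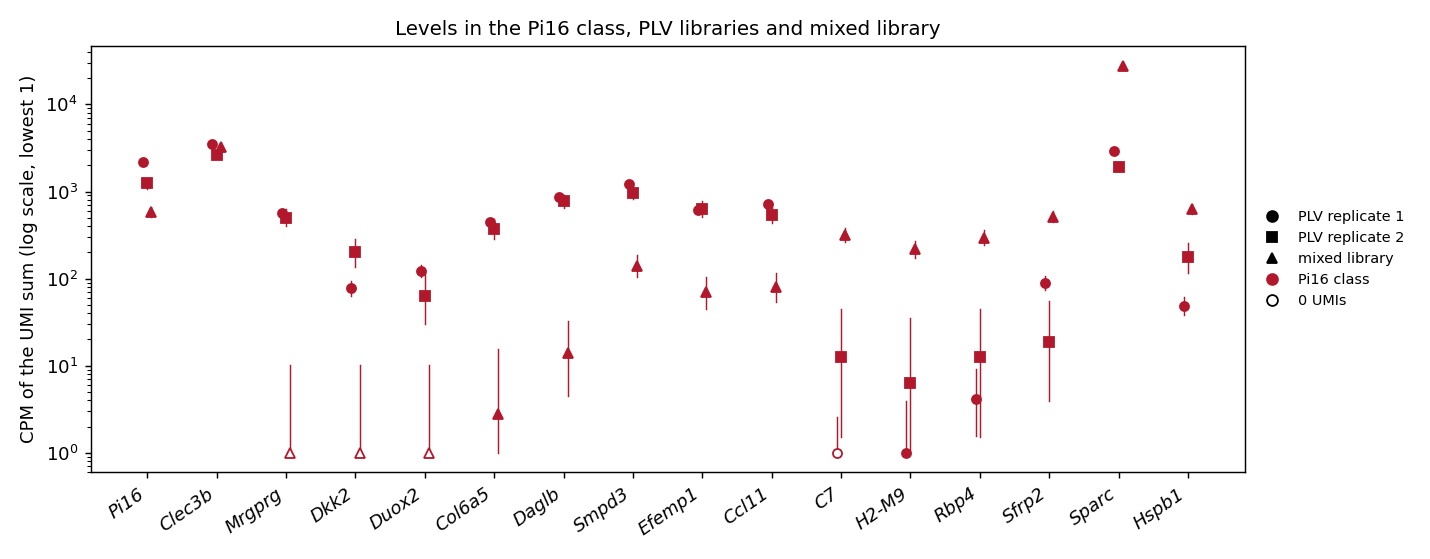
CPM (log scale, y axis) of 16 genes (x axis) in the Pi16 class sums of the PLV replicates and the mixed library, with exact 95% Poisson intervals and open symbols for 0 UMIs, where levels under 1 are drawn at 1. Mrgprg, Dkk2 and Duox2 have 0 UMIs in the mixed members, Clec3b is level, and C7, H2-M9 and Sparc are highest in the mixed members.

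Whether the gap between kinds of library was unlike in the Pi16 class was fitted as an interaction. A single library carries the mixed side, so its calls are given as a description. It passed for 8 of 7429 genes (0.108%) with edgeR, of which Dkk2, Col6a5, Col6a6 and Tdo2 were relatively higher in the PLV members and Tmem176b, Sbspon, Mcam and Bcam relatively lower. The cleaner fit called 9 of 5905 (0.152%), of which Dkk2, Col6a5 and Col6a6 were shared with these 8. Tdo2, Sbspon and Bcam were not called there (edgeR, adjusted p = 0.0864, 1.0 and 1.0), Tmem176b turned to 2.48 on the log2 scale (edgeR, adjusted p = 1.0), and Mcam was not tested. DESeq2 called none of the 8, with 84 genes at an unadjusted p under 0.05, against 394 with edgeR. Col6a5 and Col6a6 are neighbouring genes of chromosome 9. Col6a6 stood at 227, 138 and 39.2 CPM in the members and at 0, 0 and 43.9 CPM in the Cxcl14 class.

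The strain's reporter was low in the members. tdTomato stood at 32.9, 62.7 and 81.1 CPM (exact 95% intervals 24.2 to 43.7, 30.1 to 115 and 54.3 to 116) and was detected in 15.7%, 26.1% and 37.2% of members. The Cxcl14 class had 24.9, 38.6 and 53.5 CPM and the Col4a4 class 34.2 and 46.2 CPM. The log2 differences of 0.41 ± 0.33 (SE) and 0.54 ± 0.38 did not pass (edgeR, adjusted p = 0.69 and 0.635). Endothelial barcodes had 47.9, 74.1 and 123 CPM and near-empty droplets of the mixed library 59.0 CPM. No such background was measured for the PLV libraries. Wt1, which drives the Cre, had 0 UMIs in the members of every library, which allows 2.10, 18.8 and 8.39 CPM.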

How the data were processed

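Single-cell RNA was measured with a 10x 3' kit. The deposited files held UMI counts, raw and with no normalization, made with Cell Ranger 6.1.2 for the PLV files and Cell Ranger 4 for the mixed file, per the file headers, on build GRCm38, per the submitters' processing notes. The PLV matrices were deposited already filtered, with 2649 and 730 barcodes. The mixed matrix held 896360 barcodes, and its hashtag counts were not used here.

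UMI counts were summed per library and class, sums of fewer than 10 barcodes were left out, and tested in R 4.3.3 by the quasi-likelihood test of edgeR 4.0.16, after filterByExpr and with TMM scaling, at a Benjamini-Hochberg adjusted p under 0.05 over all genes tested. DESeq2 1.42.0 was an alternative. The 17 gate genes were left out of all tests. The class contrasts had the library as a block because classes of 1 library share mice and run. On simulated counts the Cxcl14 contrast recovered 87.2% of genes changed 4-fold (5488 genes, 3.68% of calls false). The simulated counts had the same mean for a gene in every library and no gate on the barcodes' own RNA. Their share of false calls therefore does not describe the real calls. Clusters used scanpy 1.11.5 (2000 variable genes, 20 components, 15 neighbours, Leiden resolution 0.5). The rule has no doublet step, and scrublet marked 10, 3 and 3 barcodes, of which 3 were members.

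Members, classes and the 16 gene lists were chosen with earlier results of these data known. Genes were named if they were markers, if they were among the first 5 of a list past the threshold in both class contrasts (or up to 3 past 1 contrast), among the 10 highest or 5 lowest genes outside the lists with 50 or more UMIs and the same sign in every library, or, between PLV and mixed members, among the 8 largest in each direction or in a list. Genes named beyond this rule were chosen after their values were seen. Pools of mice are separate samples per the labels, and 2 PLV pools limit every p-value. Intervals and the floor of 3 counts cover counting error only. Some list genes are not reported here by name.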

Additional observations from a re-analysis of the deposited data

Results flagged for a closer look

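Whether PLV and mixed libraries differed in another way in the Pi16 class than in the other fibroblast classes was tested, and 8 genes passed with edgeR. Values are log2 differences of differences with an edgeR adjusted p, and none was called by DESeq2. The mixed side is a single library, so the p-values rest on the assumption that it varies like the PLV libraries, and the values are a description. Dkk2 gave 10.11 and Col6a5 9.59 (edgeR, adjusted p = 0.00502 each), and both had 0 or 1 UMI in the mixed members, so they were tested through other sums and the size of the difference is not determined. Col6a6 gave 9.37 (edgeR, adjusted p = 0.00965) and Tdo2 5.38 (edgeR, adjusted p = 0.0402). Tmem176b gave -4.43 (edgeR, adjusted p = 0.00502), with 32.9, 50.2 and 120 CPM in the members (PLV replicates, then mixed library) against 150, 287 and 26.7 CPM in the Cxcl14 class. Sbspon gave -7.70, Mcam -8.15 and Bcam -5.76 (edgeR, adjusted p = 0.0461 each). These 3 genes stood at 231, 68.5 and 496 CPM in the Col4a4 class of PLV replicate 1, which holds 18 barcodes, and at 6.03, 0 and 10.0 CPM in that of the mixed library. With other-lineage barcodes left out, Dkk2, Col6a5 and Col6a6 passed (9.68, 9.08 and 8.75), Tdo2, Sbspon and Bcam did not, Tmem176b turned to 2.48 (edgeR, adjusted p = 1.0) and Mcam was not tested. With each barcode thinned to 1500 UMIs, 5 genes passed, none of them among these 8.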

How the results depend on the processing

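The mean PLV share of fibroblast barcodes in the Pi16 class lay between 24.5% and 36.3% under the cell filters, class rules and thinning tried, and the mixed share between 5.23% and 12.5%. Leaving out a library gave PLV shares of 18.7% to 43.9%. The intervals of PLV replicate 2 and the mixed library overlapped under 4 of 7 such settings, given beside the shares. Counts of called genes moved more. Against the Cxcl14 class 198 became 302 with at least 3 class genes, 91 after thinning to 1500 UMIs and 480 with no filter on low counts. With barcodes gated on a random part of their UMIs and summed on the rest, an alternative chosen after seeing the data, it became 119. Leaving out a library gave 11 to 400. Against the Col4a4 class 210 became 324 with other-lineage barcodes left out, 24 after thinning, 626 with no filter and 139 with separate gating UMIs, and 84 to 484 with a library left out. For PLV against mixed members 146 became 308 with at least 1000 UMIs, 456 with other-lineage barcodes left out, 420 with at least 3 class genes, 25 with DESeq2, 231 with no filter and 381 with separate gating UMIs. The interaction count of 8 became 15 at 10% mitochondrial UMIs, 18 with at least 3 class genes, 5 after thinning, 0 with DESeq2, 47 with no filter and 19 with separate gating UMIs. The causes of these moves were not tested.

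Without the replicate block, which ties the classes of 1 library, 34 genes were called against the Cxcl14 class and 65 against the Col4a4 class, all among those called with it. The libraries are the same mice in each class, so the pairing comes from the design. Over the named genes 1664 values kept direction and side of the threshold, 374 lost the call and 1 turned, namely Ccn3 against the Col4a4 class, at -0.42 after thinning (edgeR, adjusted p = 0.991). The tdTomato differences were 0.41 and 0.54 with at least 1000 UMIs, and the gene was not tested after thinning. Leaving a PLV library out of the PLV against mixed fits leaves no spread to test, so it was not run. Depth limits small sums: 3 counts are 18.8 CPM in the members of PLV replicate 2 and 25.7 CPM in the Col4a4 class of PLV replicate 1.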
